A study of Danio rerio with 24 samples.

Results

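Neurons are told apart by the transmitter they release, and 10 genes that carry this identity for glutamate, GABA, glycine and acetylcholine were followed in zebrafish rb1 brain tumors. They are slc17a6a, slc17a6b, slc17a7a and slc17a7b for glutamate, gad1b, gad2 and slc6a1b for GABA, slc32a1 for GABA and glycine, slc6a5 for glycine and chata for acetylcholine. Each was found by its exact symbol in the table of raw counts, which gave 10 of 10 members among 32266 genes. All 10 were detected and passed the filter on low counts.

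The tumors came from 10 adult zebrafish (WIK strain, 6.5 to 10 months old by the labels) whose rb1 gene had been cut somatically with TALENs, which are nucleases designed against a chosen site. Each tumor was from a different fish, and each fish was a mosaic, so a tumor sample can hold cells with an intact rb1. The controls were wild-type siblings, sampled as 2 pools of 3 brains each. In all fish the RNA came from one sagittal side of a region reaching from the diencephalon past the cerebellum, so both groups mix many cell types and the telencephalon was left out.

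Every transmitter needs its own small set of proteins. Vesicular glutamate transporters (VGLUT) load glutamate into synaptic vesicles, and in the vertebrate brain the slc17a6 genes mark many diencephalic, midbrain and hindbrain neurons while slc17a7 is prominent in cerebellar granule cells. GABA is made from glutamate by the glutamate decarboxylases encoded by gad1b and gad2, is loaded into vesicles by the vesicular inhibitory amino acid transporter slc32a1, which also loads glycine, and is cleared by plasma membrane transporters such as slc6a1b (GAT1). Glycinergic neurons take glycine back up through slc6a5 (GlyT2), and cholinergic neurons make acetylcholine with choline acetyltransferase, chata.

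Each RNA sample was read as libraries a and b, giving 24 libraries of 8.79 to 12.8 M (mega) counts. Summed per sample, a tumor had 18.5 to 24.95 M counts and the pools 19.8 and 21.04 M, so a floor of 3 counts corresponded to 0.120 to 0.162 CPM. CPM are counts per 1 M counts after TMM scaling, which corrects for differences in library composition. The chi-square per degree of freedom, which is 1 for sampling noise, was 1.04 to 1.60 between libraries a and b of a tumor and at least 17.1 between tumors. The control libraries went against their labels, since libraries of the same letter from pools 1 and 2 gave only 1.00 and 1.01 and libraries of different letters gave 3.25 to 3.42, also within a pool. Sums by pool number therefore differed by about sampling noise, so lying below both pools does not count as 2 independent checks. What the control labels stand for was not tested. Values are given for both pools. The mean and SD of the controls were computed from 2 sums, one per library letter, which were TMM-scaled separately. A control mean can therefore lie slightly outside the 2 pool values. By the labels each sum holds both pools, so the control SD is not a spread between pools or brains. The paper ran replicates A and B in separate lanes, and an effect of the lane was not tested. The targeted gene, rb1, stood at 18.8 to 101 CPM in tumors (median 29.3) and at 13.1 and 14.6 CPM in the pools (log2 fold change 1.47 ± 0.61 SE, adjusted p = 0.0481, edgeR's quasi-likelihood test), and RNA levels do not show whether a gene carries small insertions or deletions.

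All 10 transmitter identity genes were lower in the tumors than in normal brain, by 3.94-fold to 8.63-fold. A gene was called when edgeR's quasi-likelihood test gave an adjusted p of at most 0.01 and the change was at least 1.5-fold. By this rule 10 of 10 members fell and 0 rose, where 24.9% of the 20957 genes tested fell and 22.8% rose. The members and the gene lists used below were chosen with earlier results of these data known, so such counts are a description. The median log2 fold change of the members was -2.71, against 0.09 over all genes tested. Every tumor lay below both pools for each of the 10 genes, a pattern that 32.8% of tested genes showed. With the control libraries summed by letter in place of pool number, 10 of 10 members were again called lower. In bulk RNA, fewer neurons of a type and less RNA per neuron cannot be told apart.

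**Figure D1:**
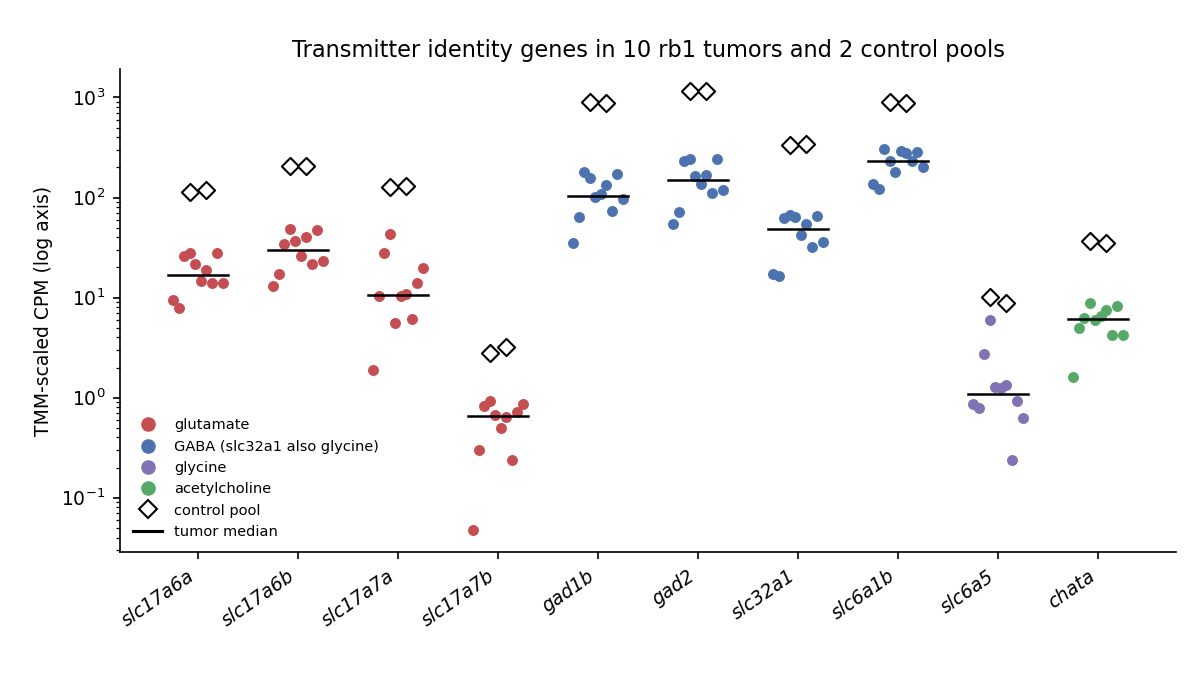
TMM-scaled CPM on a log axis for the 10 genes, with 1 point per tumor colored by transmitter, a black line at the tumor median and a diamond for each control pool. All 10 tumors sit below both pools for each gene, and the tumors spread most for slc17a7a, slc17a7b and slc6a5, where slc17a7b in tumor 1 rests on 1 read.

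The glutamate transporters fell by similar amounts on average, but slc17a7a differed more between tumors than its relatives. The slc17a6 copies are described first. slc17a6a (ENSDARG00000001127) stood at 113 and 118 CPM in the pools and at 7.89 to 28.2 CPM in the tumors, with a median of 16.8. Tumors 9, 4 and 3 were the highest and tumors 2 and 1 the lowest. The tumor mean was 18.3 ± 7.47 CPM (SD, n = 10) and the control mean 116 ± 3.27 CPM (SD, n = 2 sums), a 6.31-fold fall (log2 fold change -2.66 ± 0.35 SE, adjusted p = 3.11e-05, edgeR's quasi-likelihood test). slc17a6b (ENSDARG00000041150) stood at 207 and 208 CPM in the pools and at 12.9 to 48.7 CPM in the tumors, with a median of 30.1. Tumor 1 was the lowest for this copy, and tumors 4 and 9 were again the highest. Its means of 30.7 ± 12.4 and 208 ± 7.85 CPM gave a 6.74-fold fall (log2 fold change -2.75 ± 0.34 SE, adjusted p = 2.13e-05, edgeR).

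slc17a7a (ENSDARG00000016480), a copy of the transporter used by cerebellar granule cells in zebrafish, stood at 128 and 131 CPM in the pools. In the tumors it ran from 1.90 to 43.0 CPM with a median of 10.7. The values were 1.90 in tumor 1, 5.60 in tumor 5, 6.04 in tumor 8, 10.4 in tumors 2 and 6, 10.9 in tumor 7, 14.1 in tumor 9, 19.7 in tumor 10, 27.9 in tumor 3 and 43.0 in tumor 4. The highest tumor was 22.6-fold above the lowest and still 3.02-fold below the control mean. The tumors averaged 15 ± 12.3 CPM and the controls 130 ± 3.29 CPM, an 8.63-fold fall and the largest among the 10 genes (log2 fold change -3.11 ± 0.64 SE, adjusted p = 0.000987, edgeR). The SE is large beside the gaps between members, so the order of the fold changes among the 4 transporters was not resolved.

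slc17a7b (ENSDARG00000090106) was close to the limit of detection. It had 58 and 71 counts in the pools (2.80 and 3.22 CPM) and 1 to 21 counts in a tumor, or 0.0475 to 0.919 CPM, the lowest of which is under the floor. The tumor median was 0.655 CPM, and tumor 4 was the highest and tumor 1 the lowest, as for slc17a7a. The tumors averaged 0.571 ± 0.293 CPM and the controls 3.03 ± 0.036 CPM (log2 fold change -2.38 ± 0.54 SE, adjusted p = 0.00186, edgeR). The call was lost when either control was left out (adjusted p = 0.0155 without control 1 and 0.0259 without control 2), in fits where the lone control is assumed to vary like the tumors. Only uniquely mapped reads are taken to have been counted, so reads shared by the a and b copies would be missing from both.

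The genes of GABA synthesis and release fell together and by nearly the same factor. gad1b (ENSDARG00000027419) stood at 898 and 889 CPM in the pools and at 34.8 to 181 CPM in the tumors, with a median of 105. Tumors 3, 9 and 4 were the highest and tumor 1 was the lowest. The tumors averaged 112 ± 48.4 CPM and the controls 896 ± 13 CPM, a 7.96-fold fall (log2 fold change -2.99 ± 0.38 SE, adjusted p = 2.53e-05, edgeR). gad2 (ENSDARG00000015537) stood at 1158 and 1161 CPM in the pools and at 54.4 to 244 CPM in the tumors, with a median of 150. The same 3 tumors led, and tumors 1 and 2 were the lowest. Its means of 154 ± 68.7 and 1163 ± 9.51 CPM gave a 7.53-fold fall (log2 fold change -2.91 ± 0.39 SE, adjusted p = 3.53e-05, edgeR).

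slc32a1 (ENSDARG00000059775), which fills vesicles in both GABAergic and glycinergic neurons, stood at 334 and 340 CPM in the pools and at 16.6 to 66.3 CPM in the tumors, with a median of 48.3. Tumors 2 and 1 lay at 16.6 and 17.1 CPM, and 4 tumors (3, 4, 5 and 9) lay between 62.7 and 66.3 CPM. The tumors averaged 45.5 ± 19.5 CPM and the controls 338 ± 12.1 CPM, a 7.4-fold fall (log2 fold change -2.89 ± 0.39 SE, adjusted p = 4.06e-05, edgeR).

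slc6a1b (ENSDARG00000039647), which returns released GABA to cells, fell least of the 10 genes in the count-based fit and was the most even between tumors. It stood at 895 and 883 CPM in the pools and at 123 to 303 CPM in the tumors, with a median of 231. Tumors 3, 6 and 9 were the highest and tumors 2 and 1 the lowest. The tumors averaged 226 ± 64.7 CPM and the controls 891 ± 7.73 CPM, a 3.94-fold fall (log2 fold change -1.98 ± 0.26 SE, adjusted p = 3.36e-05, edgeR). Its coefficient of variation over tumors was 28.7%, against 82.3% for slc17a7a and 104% for slc6a5. Of all genes tested, 12.5% had a larger fall than slc6a1b, while 1.25% had a larger fall than slc17a7a.

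slc6a5 (ENSDARG00000067964), the glycine reuptake transporter of glycinergic neurons, was low in both groups. It stood at 10.1 and 8.75 CPM in the pools and at 0.238 to 5.95 CPM in the tumors, with a median of 1.08. Tumor 4 at 5.95 CPM, with 64 and 72 counts in its a and b libraries, stood apart from tumor 3 at 2.70 CPM and from the other 8 tumors at 0.238 to 1.35 CPM. Tumor 8 was the lowest, with 5 counts in all. The tumors averaged 1.59 ± 1.66 CPM and the controls 9.43 ± 0.54 CPM (log2 fold change -2.55 ± 0.69 SE, adjusted p = 0.00597, edgeR). The call was lost without tumor 2, 5, 6 or 7 (adjusted p = 0.0119, 0.0102, 0.01003 and 0.0103), in library b alone (0.0133), against a 1.5-fold change (0.0136) and without either control (0.0483 and 0.0324). Without tumor 4 the log2 fold change was -3.07 (adjusted p = 0.000196, edgeR).

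chata (ENSDARG00000015854), the enzyme that makes acetylcholine, stood at 36.5 and 34.9 CPM in the pools and at 1.61 to 8.75 CPM in the tumors, with a median of 6.06. Tumor 1 was the lowest, and tumors 4 and 9 were the highest. The tumors averaged 5.80 ± 2.13 CPM and the controls 35.8 ± 2.32 CPM, a 6.14-fold fall (log2 fold change -2.62 ± 0.35 SE, adjusted p = 3.84e-05, edgeR). This log2 fold change lay within the range of the 4 VGLUT genes, -3.11 to -2.38.

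The 10 genes can be compared in level with one another only per length, as FPKM (counts per 1 kb of exon and 1 M counts). In normal brain the order of mean FPKM was gad1b at 260, slc6a1b at 217, gad2 at 186, slc32a1 at 97.7, slc17a7a at 74.6, slc17a6a at 46.4, slc17a6b at 38.2, chata at 17.8, slc6a5 at 3.17 and slc17a7b at 1.58. In the tumors slc6a1b led with a mean of 52.5 FPKM, followed by gad1b at 31.4, gad2 at 23.8, slc32a1 at 12.7, slc17a7a at 8.33, slc17a6a at 7.04, slc17a6b at 5.42, chata at 2.76, slc6a5 at 0.518 and slc17a7b at 0.287. The order was the same except that slc6a1b and gad1b changed places, with slc6a1b above gad1b in 10 of 10 tumors and below it in both pools. Most neighbours in the tumor order were ranked alike in 10 of 10 tumors. The exceptions were slc32a1 over slc17a7a and slc6a5 over slc17a7b, each in 7 of 10 tumors, and slc17a7a over slc17a6a, in 5 of 10, so the levels of these neighbours did not differ beyond the spread of the tumors.

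Ratios within a sample show whether the transmitter classes shrank in step. The summed FPKM of gad1b and gad2 over that of the 4 VGLUT genes was 2.82 and 2.74 in the pools and 1.87 to 3.17 in the tumors, with a median of 2.81. Tumors 4, 10, 2, 1 and 3 lay below both pools and the other 5 above both, so the balance of GABA over glutamate genes moved in no common direction. Within the decarboxylases, gad2 gave 38.0% to 47.5% of the FPKM in tumors (median 42.6%) and 41.6% and 41.9% in the pools, with 5 tumors on each side.

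Within the glutamate genes the balance varied more. The slc17a7 copies gave 47.5% and 47.4% of VGLUT FPKM in the pools and from 15.3% to 55.6% in the tumors, with a median of 33.8%. Tumors 1 and 5 were lowest at 15.3% and 18.9%, tumors 8, 9, 7 and 6 lay between 27.3% and 36.9%, and tumors 2, 3, 10 and 4 lay between 49.2% and 55.6%, above both pools. Tumor 5 shows the contrast within a single sample, since its slc17a6b stood at 36.7 CPM, above the tumor median, and its slc17a7a at 5.60 CPM, the second lowest. Between the slc17a6 copies, the ratio of slc17a6a to slc17a6b was 1.19 and 1.24 in the pools and 1.00 to 1.67 in the tumors.

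Of the ratios taken within a sample, that of slc6a1b to slc32a1 was the one that moved one way in all tumors. slc6a1b over slc32a1 was 2.25 and 2.19 in the pools and 2.40 to 6.65 in the tumors, with a median of 4.50, and 10 of 10 tumors lay above both pools. Tumors 1, 2 and 8 had the highest ratios (6.65, 6.21 and 6.11), and tumors 5 and 4 the lowest (2.40 and 2.92). This shift is that of slc6a1b, which also changed places with gad1b in the order above. The other copy of this GABA transporter, slc6a1a, had a log2 fold change of -2.55, against -1.98 for slc6a1b and -2.89 for slc32a1. A shift of GABA uptake as a class was therefore not shown. The ratio of slc6a5 to slc32a1, a view of the glycinergic part of the inhibitory genes, was 0.0350 and 0.0299 in the pools and ran from 0.00826 in tumor 8 to 0.104 in tumor 4 (median 0.0317). These ratios were chosen with the levels of the genes known and are given as a description.

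**Figure D2:**
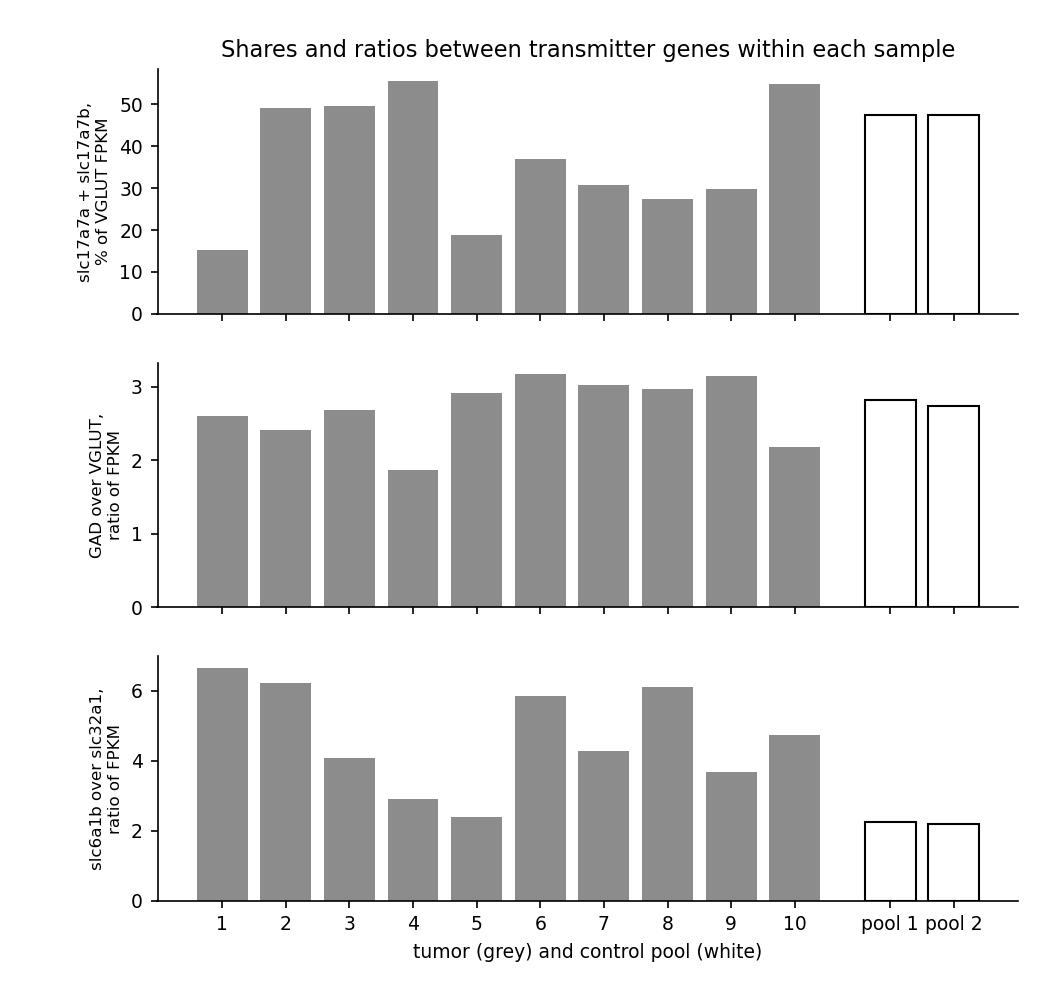
Bars give, for tumors 1 to 10 (grey) and control pools (white), the percent of VGLUT FPKM that came from slc17a7a and slc17a7b, the ratio of GAD to VGLUT FPKM and the ratio of slc6a1b to slc32a1 FPKM, all from 0. The slc17a7 share runs from 15.3% to 55.6%, the GAD to VGLUT ratio lies on both sides of the pools, and the slc6a1b to slc32a1 ratio is above both pools in 10 of 10 tumors.

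The tumors differed in how far the whole set fell. For each tumor, the log2 difference of every gene from the control mean was taken, and its median over the 10 genes ran from -4.36 in tumor 1 to -2.04 in tumor 4. Tumor 1 was the lowest tumor for 6 genes, tumor 2 for 3 and tumor 8 for 1. Tumor 4 was the highest for 6 genes, tumors 3 and 9 for 2 each. Most genes lay within 1.5 log2 units of the median of their own tumor, and 5 of the 100 values lay farther away. slc17a7a in tumor 5 stood at -4.54 where the median of that tumor was -2.55, and slc6a5 in tumor 8 at -5.31 against -3.40. In tumor 1, with a median of -4.36, slc17a7a stood at -6.10, slc17a7b at -5.99 on 1 count, and slc6a1b above the rest at -2.72.

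**Figure D3:**
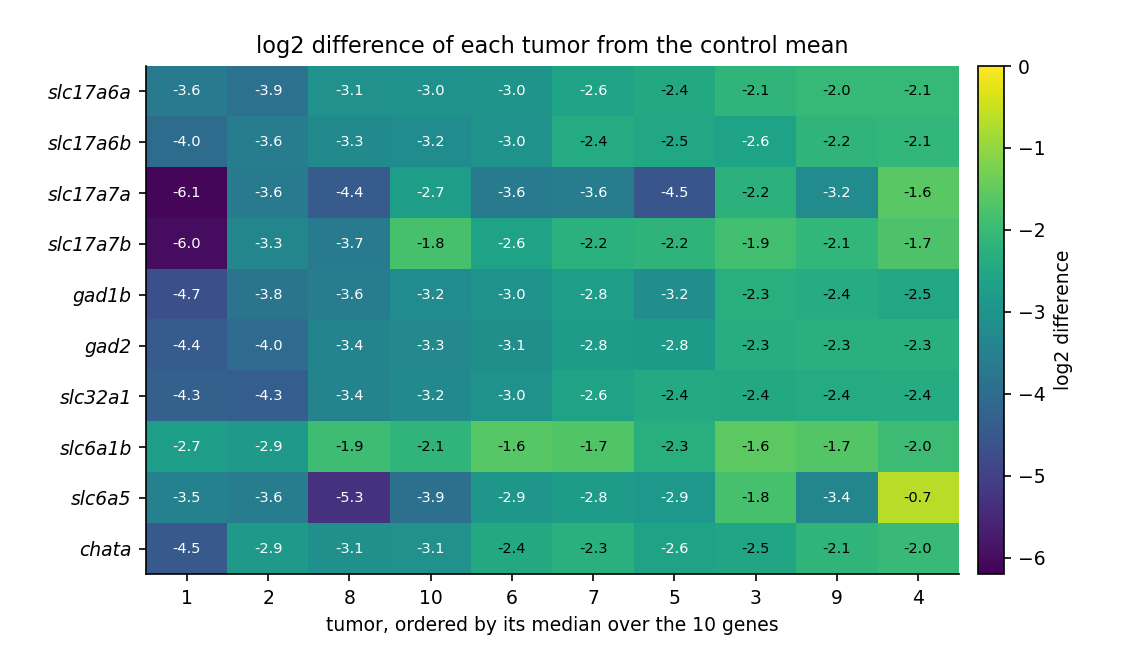
Log2 difference of each tumor from the control mean (columns, ordered by the median over the 10 genes) for each gene (rows), where 0 would be the level of normal brain. Tumor 1 reaches -6.10 for slc17a7a, all 100 cells are below 0, and slc6a5 in tumor 4 is the smallest difference at -0.66.

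Pairs of genes of the same or of different transmitters were compared across the 10 tumors on log2 CPM, with no offset added. The 10 pairs were tested by two-sided permutation and adjusted by the Benjamini-Hochberg method. Of these 10 pairs, gad1b and gad2 rose and fell together most closely, with Pearson's r = 0.97 (permutation p = 1e-05, the smallest that 100000 draws can give, adjusted p = 5e-05) and Spearman's rho = 0.95 (permutation p = 9e-05, adjusted 0.0009). Without tumors 1 and 3, the farthest from the median, r was 0.95. gad2 and slc32a1 gave r = 0.97 and rho = 0.94 (permutation p = 1e-05 and 0.00024, adjusted 5e-05 and 0.0012), and r = 0.92 without tumors 1 and 2. The slc17a6 copies gave r = 0.93 and rho = 0.93 (permutation p = 0.00016 and 0.0004, adjusted 0.000533 and 0.00133), and r = 0.91 without tumors 1 and 2. These are the decarboxylase, the packaging and the VGLUT pairs, and in each the order of the tumors was nearly kept.

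Genes of different transmitters also moved together. slc17a6b and gad1b, which mark glutamate and GABA neurons, gave r = 0.92 and rho = 0.84 (permutation p = 0.00026 and 0.00364, adjusted 0.00054 and 0.0063), and r = 0.79 without tumors 1 and 2. By contrast slc17a6b and slc17a7a, both glutamate genes, gave r = 0.66 and rho = 0.59 (permutation p = 0.037 and 0.0797, adjusted 0.0463 and 0.0797), and r = 0.40 without tumors 1 and 2 (permutation p = 0.325), so that relation rests on those tumors. slc17a7a and slc17a7b gave r = 0.84 and rho = 0.85 (permutation p = 0.0015 and 0.00294, adjusted 0.0025 and 0.0063), but r = 0.61 without tumors 1 and 4 (permutation p = 0.102). The relation of gad1b to slc6a1b fell from r = 0.81 (rho = 0.79, permutation p = 0.00418 and 0.00926, adjusted 0.00597 and 0.0132) to r = 0.69 without tumors 1 and 3 (permutation p = 0.0516).

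The 2 pairs with slc6a5 had the lowest linear correlations and did not pass on Pearson's r. slc32a1 and slc6a5 gave r = 0.54 and rho = 0.75 (permutation p = 0.115 and 0.0175, adjusted 0.128 and 0.0194), and r = 0.78 without tumors 2 and 1. slc6a5 and chata gave r = 0.49 and rho = 0.75 (permutation p = 0.163 and 0.0175, adjusted 0.163 and 0.0194), and r = 0.39 without tumors 4 and 8. The remaining pair, gad1b and slc32a1, gave r = 0.90 and rho = 0.84 (permutation p = 0.00027 and 0.00378, adjusted 0.00054 and 0.0063), and r = 0.87 without tumors 1 and 3. In all, 8 of the 10 pairs passed an adjusted p of 0.05 on Pearson's r. Once the mean level of the mature neuron markers was subtracted from every gene in each tumor, 3 pairs passed. They were gad1b with gad2 (r = 0.84), gad2 with slc32a1 (r = 0.88) and slc17a7a with slc17a7b (r = 0.72). The last passed narrowly (permutation, adjusted p = 0.0479) and includes slc17a7b at 1 count in tumor 1. The same value was subtracted from both genes of a pair, which can itself raise r. Passing therefore does not show a link beyond the level of neuron markers.

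**Figure D4:**
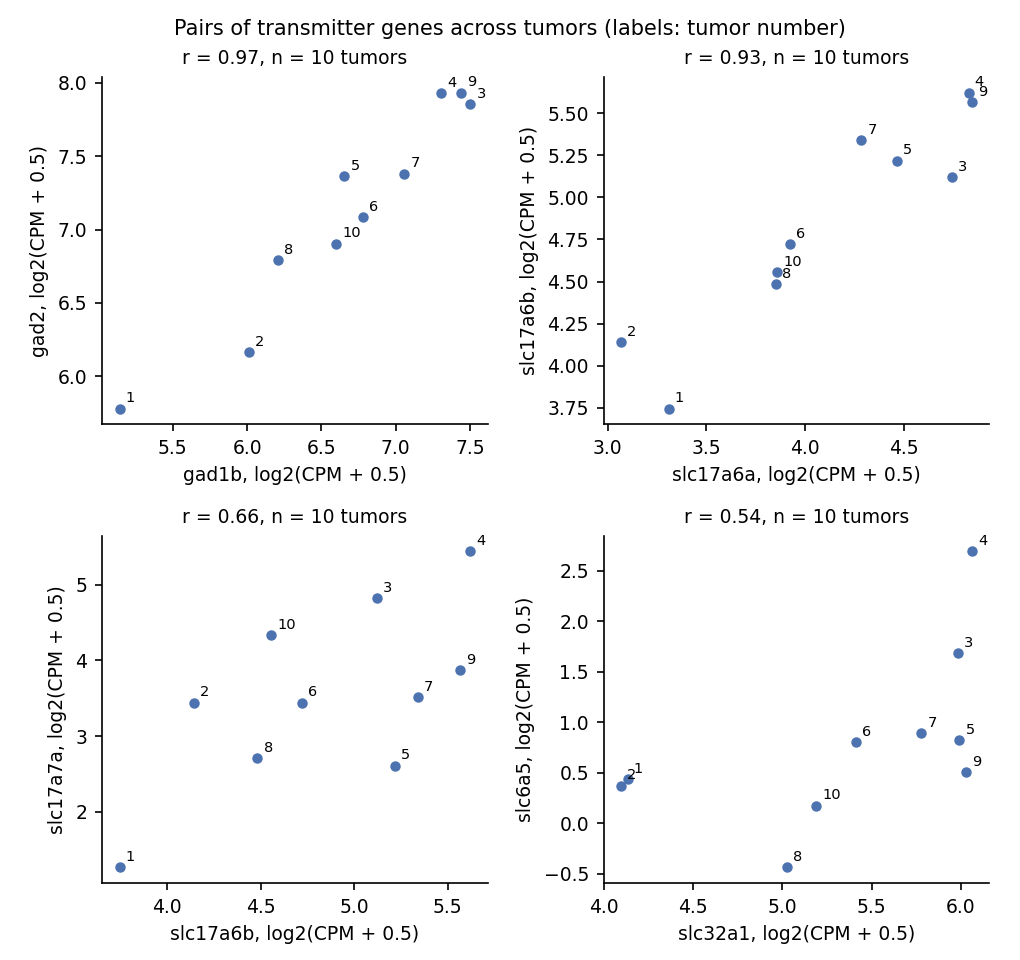
Each panel plots 2 genes on log2(CPM + 0.5) with 1 numbered point per tumor, and r was computed on log2 CPM with no offset. The decarboxylase pair (r = 0.97) and the slc17a6 pair (r = 0.93) follow a line, slc17a7a scatters at a given slc17a6b (r = 0.66), and slc6a5 against slc32a1 (r = 0.54) has tumor 4 alone at the top.

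Other genes of each transmitter pathway were taken from lists of synthesis, packaging, uptake and breakdown genes. In the glutamate list, 7 of 7 genes tested fell (median log2 fold change -2.54 against 0.09 over all genes). The 3 that are not among the 10 are slc17a8, the third VGLUT family member, at -2.54, and the glutaminases glsb and glsa, which make glutamate from glutamine, at -1.70 and -1.09. In the GABA list, 8 of 8 fell (median -2.65). gad1a fell by 2.75 and the GABA transporter slc6a1a by 2.55 on the log2 scale, while the breakdown enzymes abat (GABA transaminase) and aldh5a1 (succinate semialdehyde dehydrogenase) fell by 1.1 and 1.08. In the acetylcholine list, 7 of 7 fell (median -2.69). The vesicular acetylcholine transporters slc18a3b and slc18a3a fell by 3.35 and 2.73, the choline transporter slc5a7a by 2.55, the acetylcholinesterase anchors colq and prima1 by 2.92 and 2.69, and ache itself by 1.65. Within these 3 lists, glsa, glsb, abat, aldh5a1 and ache changed less than the vesicular transporters. The decarboxylases gad1b (-2.99), gad2 (-2.91) and gad1a (-2.75) fell about as much as slc32a1 (-2.89). This is a description of the values with no test.

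The glycine list did not move as one. Of 6 genes tested, 3 fell, 1 rose and 2 did not pass (median -0.82). slc6a5 and the membrane transporter slc6a9 (GlyT1, known mainly from glia, log2 fold change -1.54) fell. The 4 genes of the glycine cleavage system, which breaks glycine down in mitochondria of many cell types, gave mixed values. gcshb fell (-1.57, from 23 and 33 counts in the pools). amt rose (7.69 to 17.2 CPM in tumors, 3.67 and 3.04 CPM in the pools, log2 fold change 1.73 ± 0.29 SE, adjusted p = 0.000214, edgeR). gcsha stood at 0.60 (adjusted p = 0.0106) and gldc at -0.10 (adjusted p = 0.759). The count of 3 that fell dropped to 1 in library b alone, against a 1.5-fold change and without tumor 2, 6 or 7, and to 0 without either control, and 2 in place of 1 rose without tumor 2, 8 or 9.

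**Figure D5:**
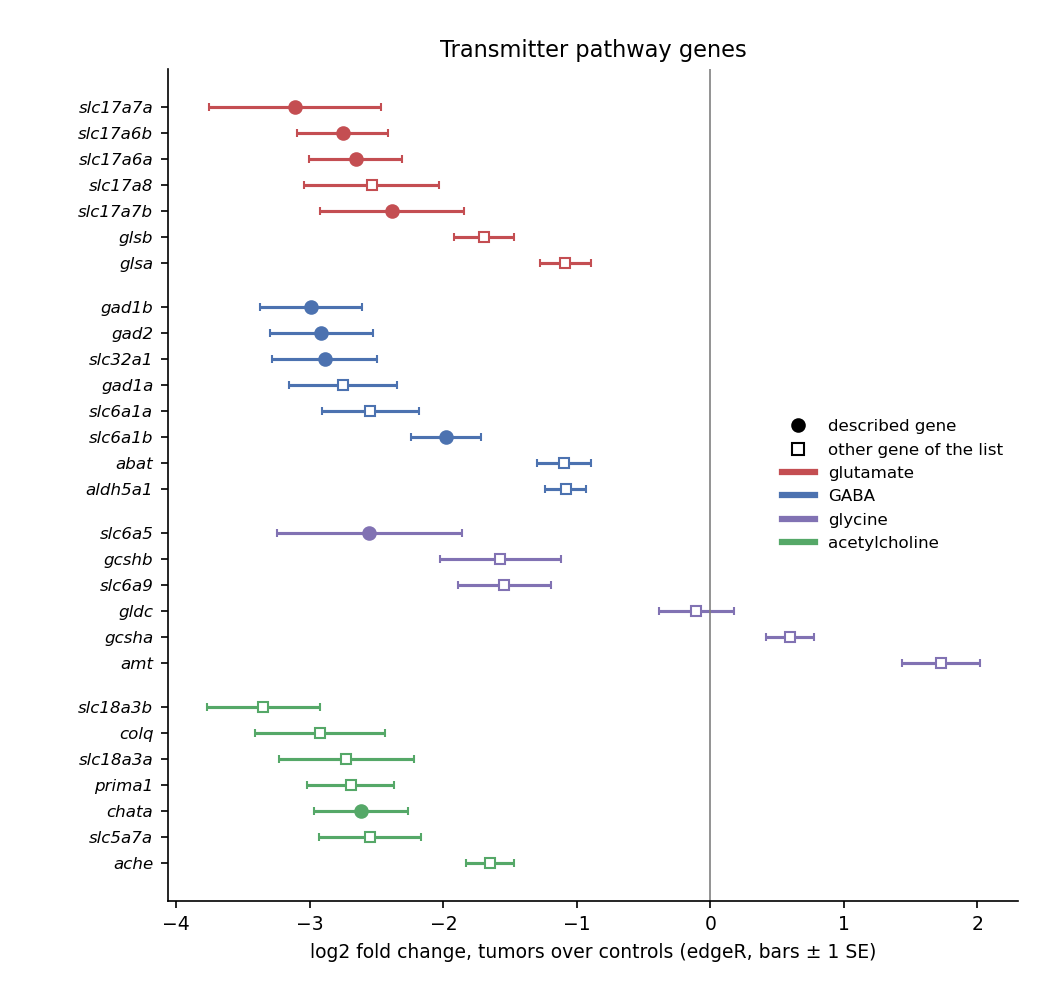
Log2 fold change of tumors over controls with bars of 1 SE from edgeR, for the 10 genes described (filled circles) and the other tested genes of the 4 transmitter lists (open squares). Values run from -3.35 for slc18a3b to 1.73 for amt, and the genes at or above 0 belong to the glycine list.

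Transcription factors that specify transmitter identity during development were lower in most cases for glutamate and for GABA and glycine, and not for acetylcholine. Among factors tied to glutamatergic neurons, 14 of 17 tested fell, 0 rose and 3 did not pass (median -2.83). The largest falls were of tlx3b (-3.75), neurod2 (-3.62) and barhl1a (-3.60). neurod1, abundant in cerebellar granule cells, went from 731 and 729 CPM in the pools to 17.1 to 169 CPM in the tumors. Among factors tied to GABAergic and glycinergic neurons, 14 of 20 fell, 1 rose and 5 did not pass (median -2.25). ptf1a (-3.17), pax2a (-3.05) and tal2 (-2.77) fell most, though ptf1a rests on 17 and 19 counts in the pools. That count of 14 falls was 9 against a 1.5-fold change and 8 among genes with at least 10 counts in every sample, which left fewer genes to test. It was 19 with limma voom and sample quality weights, and 18 at an adjusted p of at most 0.05 with no fold threshold. Among factors tied to cholinergic and motor neurons, 2 of 8 fell, 1 rose and 5 did not pass (median -1.19), a share of falls near the 24.9% of all genes, and the 2 that fell, isl2a and lhx8a, had at most 32 counts in a pool. That count was 0 in library a alone and 1 in library b alone, with controls summed by letter and without either control, and 5 with limma voom and sample quality weights.

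The tissue was checked against markers of its main cell types. Of 28 general mature neuron genes tested, 25 fell, 2 rose and 1 did not pass (median -2.38), and their summed level was 3062 to 6062 CPM in tumors and 16941 to 16987 CPM in the pools. The largest falls were of the neurofilament genes nefmb (-3.31) and nefla (-3.18) and of rbfox3a (-3.17), the gene of the neuronal nuclear antigen NeuN. The medians of the 10 transmitter genes and of this list were -2.71 and -2.38, and their difference was not tested. The 2 that rose were mapta (1.71) and elavl3 (1.13), an RNA-binding protein gene that is already on in young neurons. Of 6 proliferation genes 6 rose, from 72 and 77.9 CPM in the pools to 2498 to 4138 CPM. Of 11 microglia and macrophage genes 8 rose, with a summed level of 2239 to 4845 CPM against 707 and 708 CPM. Of 8 oligodendrocyte precursor genes 4 rose and 4 fell, with a summed level of 2468 to 3978 CPM against 368 and 380 CPM. The sum in tumors came mainly from gpr17, sox10 and olig2 (means of 1305, 1071 and 627 CPM), which rose with nkx2.2a. The genes pdgfra (-2.12), ptprz1a (-1.77), cspg4 (-1.57) and ptprz1b (-1.29) each lay below both pools in 10 of 10 tumors. Of 7 mature oligodendrocyte genes 3 rose, 1 fell and 3 did not pass. Their summed level was nevertheless lower, at 2739 to 4865 CPM in tumors against 6756 and 6760.5 CPM in the pools. The gene that fell, mbpa, went from 4544 and 4546 CPM in the pools to 297 to 1609 CPM in tumors. The 3 that rose were plp1a (log2 fold change 4.02), mbpb (2.79) and cldnk (1.68). Without either control, 1 microglia gene and 1 mature oligodendrocyte gene were called higher, 2 precursor genes were called lower, and 1 neuron gene was called higher. The part that these other cells had in the lower share of transmitter RNA was not tested.

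Glial genes of transmitter uptake were partly lower. Of 9 tested, 6 fell, 0 rose and 3 did not pass (median -1.54). slc1a2b, the main glial glutamate transporter, went from 2182 and 2171 CPM in the pools to 287 to 795 CPM in tumors (log2 fold change -2.03), glula, a glutamine synthetase gene, fell by 1.96, and its relative glulc by 2.33 from 16 and 12 counts in the pools. The count was 3 without either control. Of 8 radial glia genes, which share slc1a2b and glula, 5 fell, 0 rose and 3 did not pass (median -1.99). Brain aromatase, cyp19a1b, fell most (-3.60). The 3 that did not pass were gfap (-0.67), fabp7a (-0.50) and vim (0.65). vim stood at 58.3 to 109 CPM in tumors and at 55.4 and 56.8 CPM in the pools (adjusted p = 0.0138, edgeR). The summed level was 879 to 2151 CPM in tumors and 5533 and 5556 CPM in the pools, where slc1a2b and glula were the most abundant of the list.

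Across tumors the 10 genes followed the neuron and the radial glia markers and ran opposite to the proliferation genes. Against the mean log2 CPM of the mature neuron list, Pearson's r over 10 tumors was 0.68 (slc6a5) to 0.97 (gad1b), with a median of 0.89. Against the radial glia list it was 0.57 to 0.97 with a median of 0.88, against the oligodendrocyte precursor list -0.19 to 0.35, against the microglia list -0.67 to -0.14 and against the proliferation list -0.90 (slc17a6b) to -0.53 (slc6a1b). All these values come from the same 10 pairs of libraries and from shares of one total, so they describe the tumors and were not tested. Over all 45 pairs among the 10 genes, r ran from 0.26 to 0.97 with a median of 0.79. The highest r joined genes of different transmitters, slc17a6a and gad2 (0.97), level with gad1b and gad2 (0.97). slc17a6a with slc32a1 (0.97) and slc17a6b with gad2 (0.96) also lay above the slc17a6 copies (0.93). Genes of one transmitter thus did not vary together more closely than all pairs of different transmitters.

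The genes whose levels were most like each member across the tumors were taken from 11364 candidates with a mean of at least 10 CPM, by Pearson's r over 10 tumors. For slc17a7a they were zic4 (0.99), a zinc finger factor of the dorsal neural tube and cerebellum, cbln12 (0.99) of the cerebellin family of synaptic proteins, and olfm2b (0.98), with log2 fold changes of -3.55, -3.37 and -3.36. For gad1b they were vsnl1b, a neuronal calcium sensor, necab3 and the NMDA receptor subunit gene grin2aa (0.99 or more each), and for gad2 they were atp6v1b2, a subunit of the proton pump that energizes vesicles, the membrane fusion gene nsfa and VSTM2B (0.99 each). slc32a1 was matched best by abcg4a, the muscarinic receptor gene chrm4a and ppp4r4 (0.98 each). slc6a1b stood apart, with lrrtm2, a synaptic adhesion gene, and the glutamate transporters slc1a2b and slc1a1 (0.96 each), whose log2 fold changes were -1.93, -2.03 and -1.64.

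For slc17a6a the nearest genes were pam, which amidates neuropeptides (0.99), the adhesion gene nptna (0.98) and chrm4a (0.97), and for slc17a6b they were calm3a, ca10a and gpr158a (0.98 each). chata was matched by KCNJ6, a potassium channel gene (0.98), the midbrain homeobox gene dmbx1a (0.97) and abat (0.97). The low genes had weaker best matches, with srrm4, a neural splicing factor (0.96), pcbp3 (0.95) and camkva (0.95) for slc17a7b, and mdka (0.94), fxyd1 (0.93) and hdac5 (0.91) for slc6a5. With so many candidates and 10 tumors, high values of r arise readily, and no test was made.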

How the data were processed

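The authors deposited whole-number read counts per Ensembl gene without normalization, and FPKM values made by the authors from counts, exonic length and library totals. The submitters' processing notes name GSNAP, HTSeq, DESeq2 and GRCz10. For larval libraries of the study only uniquely mapped reads were counted, and the same was assumed here. Whether counting used strand is not given in the sources used here, so overlapping and antisense genes are uncertain. A table of the authors' own DESeq2 comparison (fold changes and p-values) was not used. The library kit was Illumina TruSeq v2, with total RNA as input.

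Libraries a and b were summed by label. All genes were tested with edgeR 4.0.16 (R 4.3.3) by its quasi-likelihood method (TMM, filterByExpr, Benjamini-Hochberg) for 10 tumors against 2 controls. The fit was also run on simulated counts with independent samples, so that run does not cover the pairing of the control libraries. Because the control libraries paired against their labels, the spread between controls may be technical, and p-values rest mainly on the spread between tumors. Alternatives used DESeq2 1.42.0, limma 3.58.1 and other scalings, filters, libraries and left-out samples. Named genes were the 10 members, all transmitter pathway genes, some of the 3 largest called changes of a list in each direction, and the 3 genes most like each member. neurod1, isl1, tbr1a, gfap, fabp7a, vim, olig2 and ptprz1b were named after their values were seen. The members and lists were chosen with earlier results of these data known. Of the listed symbols, gad3, chatb, slc5a7b, tlx3a and nes were not matched. Floors and intervals cover counting error only. No sequences or coordinates are given.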

Additional observations from a re-analysis of the deposited data

Results flagged for a closer look

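slc6a5 in tumor 4 stood apart from the other tumors at 5.95 CPM. Its gap to the next tumor was 0.57 of the whole range over the 10 tumors, above Dixon's critical value for 10 samples. On the log2 scale, looked at after seeing the data, the gap was 0.25 of the range, below that value. Its a and b libraries held 64 and 72 counts, so both libraries carried the high value. For values with a normal spread, chance alone flags about 1 in 20 genes at this critical value. With 10 genes checked in this way, 1 flag is not rare. The reason for the high level was not tested.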

How the results depend on the processing

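The 10 genes were lower in every alternative in which they were tested, and 0 reversed. Between 8 and 10 were called when a sample was left out. The genes that lost their call under some setting were slc6a5 and slc17a7b. With the replicate block, which fits the sample number, 9 of 10 were called, and slc17a7b stood at -4.19 on the log2 scale (adjusted p = 0.0134, edgeR). Tumors 3 to 10 have no control of the same number, so this fit compares only tumors 1 and 2 with the controls. Tumors 1 and 2 had the lowest medians over the 10 genes, -4.36 and -3.62. Deviations of same-numbered samples had a correlation of 0.01 for both numbers. Control libraries of the same letter differed by about sampling noise, so this correlation cannot show whether the numbers mark a pairing. With the replicate block amt was no longer called and 0 cholinergic factors were called lower. The block lowered the falls called over all genes from 5220 to 3491. Without control 1 or control 2 the falls called were 3626 and 3576 and the rises 2949 and 2904, against 4779. On log2(FPKM + 1) the log2 fold change of slc17a7b was -1.01, since its levels are low beside the pseudocount. After subtraction of the mature neuron mean, 3 pairs of genes passed in place of 8. The correlation of gad1b with slc6a1b then became -0.12 and that of slc6a5 with chata -0.0856. Leaving out each tumor in turn, an alternative chosen after seeing the data, gave 7 to 8 pairs. Depth limits slc17a7b and slc6a5, with as few as 1 and 5 counts in a tumor.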

Other observations

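Few factors tied to transmitter identity were called higher in the tumors. The counts were 0 of 17 tested for glutamate, 1 of 20 for GABA and glycine and 1 of 8 for acetylcholine. Of all genes tested, 22.8% rose. The factors called higher were helt and mnx1. helt, which in the mouse is needed for GABAergic neurons of the midbrain, stood at 12.7 to 101 CPM in the tumors and at 0.677 and 0.363 CPM in the pools (log2 fold change 6.75 ± 1.07 SE, adjusted p = 0.000129, edgeR's quasi-likelihood test). mnx1, known from motor neurons, stood at 3.94 to 18.9 CPM in the tumors and had 3 counts in all in the pools. Its ratio of tumor to control level was 168, with a 95% counting interval of 57.5 to 815. Both were called higher, while the transmitter genes of the same classes, gad1b, gad2 and chata, were called lower. tbr1a stood at 3.80 ± 1.89 CPM in tumors and at 1.30 and 1.13 CPM in the pools, and did not pass (adjusted p = 0.0354, edgeR). isl1, a factor of motor and other neurons, ran from 1.39 to 32.4 CPM across tumors around pool values of 13.3 and 14 CPM (adjusted p = 0.911, edgeR).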
